A study of Mus musculus with 12 samples.

Results

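Ppp1r15a, the stress-inducible regulatory subunit that directs protein phosphatase 1 to the translation factor eIF2, was followed together with 9 further genes of the integrated stress response in natural killer (NK) cells sorted from mouse lymph nodes. Ppp1r15a was selected on its counts in these same libraries, which differed between the groups, and the other genes were taken by symbol as members of its pathway. The 10 genes (Ppp1r15a, Ppp1r15b, Atf4, Ddit3, Ddit4, Trib3, Asns, Chac1, Sesn2 and Cebpb) are 10 of 56748 gene IDs in the count tables. A second ID that carries the symbol Ddit3 had 0 counts in all 12 libraries and was left out. RNA sequencing covered 4 libraries from tumor-bearing nodes of a lymphatic model of diffuse large B cell lymphoma, 4 from tumor-bearing nodes of its hematogenous counterpart (spread through blood vessels) and 4 from nodes of C57BL/6J mice without tumor. The sources used here do not give the lymphoma cells, the sorting gate, any treatment, or the sex and age of the mice, and the labels name C57BL/6J for the tumor-free mice alone. The samples are numbered 1 to 4 in each group without a statement that they came from separate animals, so that a p-value here measures only how far these samples spread, and that spread may be technical.

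Separate kinases phosphorylate eIF2 when a cell meets unfolded protein, amino acid shortage, heme shortage or double-stranded RNA, and the phosphorylated factor slows the start of translation in general. A few mRNAs with upstream open reading frames are then translated more, among them that of Atf4, a transcription factor that turns on genes of amino acid supply, redox balance and, in longer stress, cell death. Ppp1r15a closes the loop by having eIF2 dephosphorylated, while its relative Ppp1r15b does so in unstressed cells. Much of this response acts on translation and phosphorylation, neither of which was measured here.

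Gene counts per library ran from 6654215 to 43494812 and were lowest in tumor-free replicates 1, 2 and 4. The share of reads assigned to a gene was lower in all 4 hematogenous libraries (55.35%, 64.31%, 62.79% and 65.54%) than in the lymphatic (67.14% to 72.07%) and tumor-free libraries (65.65% to 70.66%), and lowest in hematogenous replicate 1. Its part in the lower levels found in the hematogenous model was not tested. All 12 NK markers had reads in every library, and their summed level ran from 13310 to 17491 CPM (each gene's count as a share of its library's total, put on the usual per-million scale with trimmed mean of M-values factors, TMM) in the lymphatic libraries, from 8910 to 11183 CPM in the hematogenous libraries and from 14499 to 16298 CPM in the tumor-free libraries. In such bulk RNA, fewer cells of a type and less RNA per cell cannot be told apart.

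The promoter of Ppp1r15a is shown because this gene differed most among the 10, and short stretches of other promoters are shown for the element that ATF4 is known to bind. The sequences are those of RefSeq on the build GRCm38.p6, from 250 bases before to 50 bases after the annotated start site, and 9 of the 10 genes had an entry (Ppp1r15b had none). The window of Ppp1r15a lies at chr7:45526219-45526518 on the minus strand. Capitals mark a cyclic AMP response element (TGACGTCA), which begins 12 bases before the annotated start site, and a TATA box (TATAAA), which lies after it.
Ppp1r15a: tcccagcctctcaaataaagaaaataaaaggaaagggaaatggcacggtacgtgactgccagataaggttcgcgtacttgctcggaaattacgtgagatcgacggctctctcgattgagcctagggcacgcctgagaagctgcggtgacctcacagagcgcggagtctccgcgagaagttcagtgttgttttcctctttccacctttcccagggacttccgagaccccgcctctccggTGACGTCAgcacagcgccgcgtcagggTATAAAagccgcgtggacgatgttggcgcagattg
The C/EBP-ATF response element was searched as TGATGNAA on both strands and was found in the windows of Asns, Chac1 and Trib3, in capitals here, with the last 2 matching on the reverse strand. The stretches lie on the minus strand at chr6:7693215-7693242 for Asns, on the plus strand at chr2:119351039-119351066 for Chac1 and on the minus strand at chr2:152344029-152344056 for Trib3.
Asns: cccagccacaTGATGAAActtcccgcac
Chac1: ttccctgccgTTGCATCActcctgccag
Trib3: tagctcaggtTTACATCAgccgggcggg
Of all 32851 promoter windows of this length, 3.97% hold the C/EBP-ATF element, 1.79% the cyclic AMP response element, 8.32% the TATA box on the sense strand and 7.81% an AP-1 site (TGANTCA), which among these genes was found in the window of Ddit3. A match is a run of letters and was not tested as a binding site.

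Ppp1r15a mRNA was high in the lymphatic model, intermediate in the hematogenous model and low in tumor-free nodes. Its level was 216, 291, 153 and 198 CPM in lymphatic replicates 1 to 4 and 99.0, 81.1, 96.6 and 148 CPM in hematogenous replicates 1 to 4, against 20.3, 15.5, 26.2 and 13.5 CPM in tumor-free replicates 1 to 4. No group overlapped another, although the lowest lymphatic library stood only just above the highest hematogenous library. The group averages were 214 ± 57.5 CPM in lymphatic, 106 ± 29.0 CPM in hematogenous and 18.9 ± 5.63 CPM in tumor-free libraries (SD, n = 4 each). The fitted log2 fold change was 3.48 (SE 0.236) for lymphatic against tumor free, 2.46 (SE 0.229) for hematogenous against tumor free and −1.02 (SE 0.212) for hematogenous against lymphatic. On a linear scale these are 11.2-fold and 5.52-fold higher levels than in tumor-free libraries, and the comparisons share the tumor-free libraries. The gene was put forward for this pattern, so that these values describe it and no test is given.

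**Figure D1:**
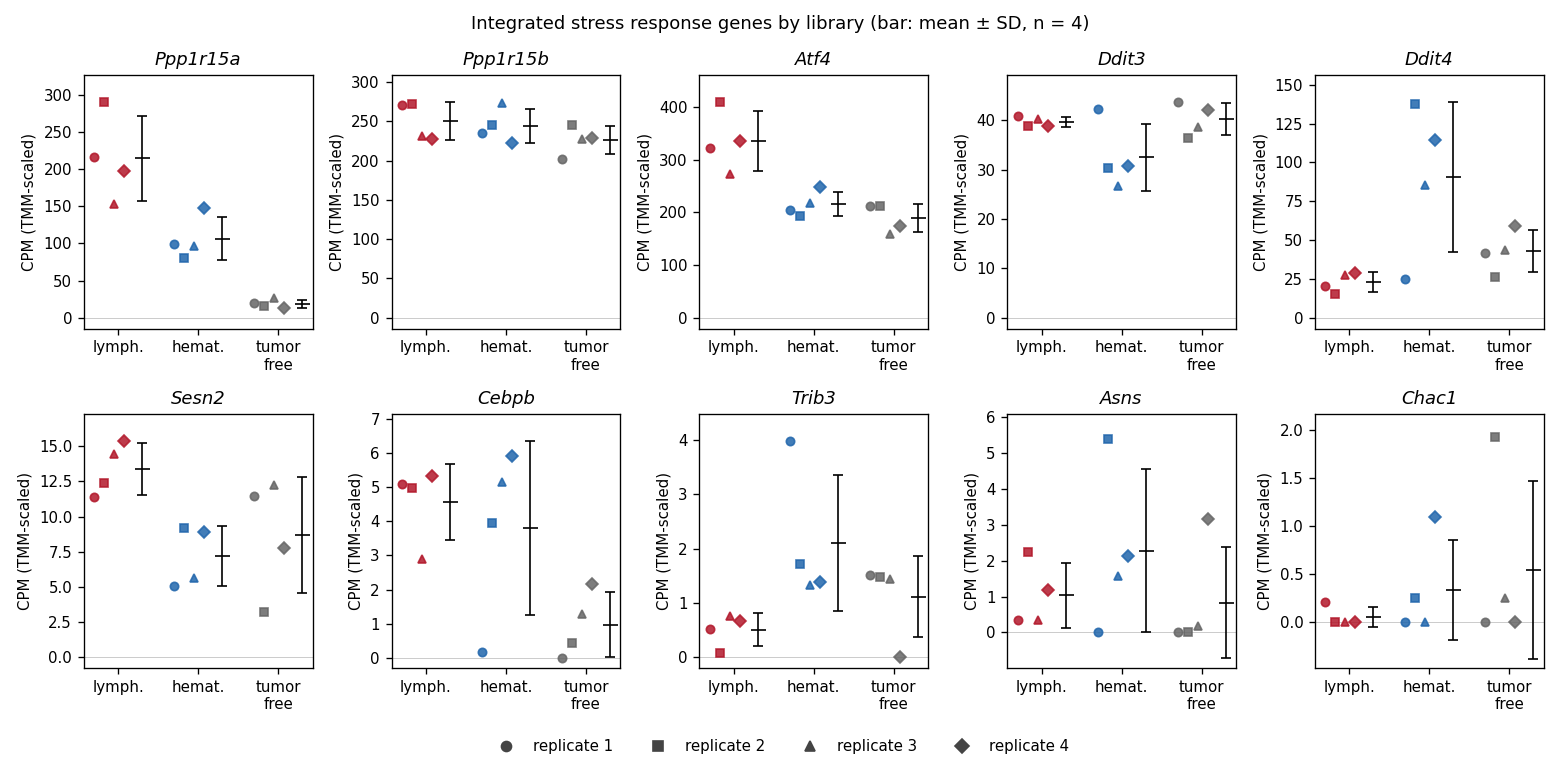
Level of each of the 10 genes in each of the 12 libraries, in TMM-scaled CPM on a linear axis that differs between panels. Symbols are replicates of the lymphatic, hematogenous and tumor-free groups and bars are mean ± SD (n = 4). The Ppp1r15a groups do not overlap, hematogenous replicate 1 lies at 25.2 CPM for Ddit4 against 85.4 to 137 CPM in the other hematogenous libraries, and Trib3, Asns and Chac1 stay under 6 CPM.

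Ppp1r15b, the constitutive counterpart, was nearly level across the groups. It stood at 270, 273, 231 and 228 CPM in the lymphatic libraries, at 235, 245, 274 and 222 CPM in the hematogenous libraries and at 203, 245, 227 and 229 CPM in the tumor-free libraries. All groups overlapped. The log2 fold change was 0.15 (SE 0.114) for lymphatic against tumor free (adjusted p = 0.655, edgeR), 0.11 (SE 0.114) for hematogenous against tumor free (adjusted p = 0.575, edgeR) and −0.04 (SE 0.114) for hematogenous against lymphatic (adjusted p = 0.902, edgeR, a difference whose sign turned under other scalings). An interval of 2 SE for lymphatic against tumor free ran from −0.08 to 0.38.

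Within a library the ratio of the paired subunits needs no scaling between libraries. Counts per kilobase of exon of Ppp1r15a were 1.52, 2.03, 1.26 and 1.66 times those of Ppp1r15b in lymphatic replicates 1 to 4. The same ratio was 0.802, 0.630, 0.673 and 1.27 in hematogenous replicates 1 to 4 and 0.191, 0.121, 0.219 and 0.112 in tumor-free replicates 1 to 4. Per length, the inducible subunit was thus the more abundant mRNA in all 4 lymphatic libraries and in hematogenous replicate 4, and the less abundant one in the other 7 libraries. Tumor-free values lay below all others, and hematogenous replicate 4 lay just above lymphatic replicate 3.

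**Figure D2:**
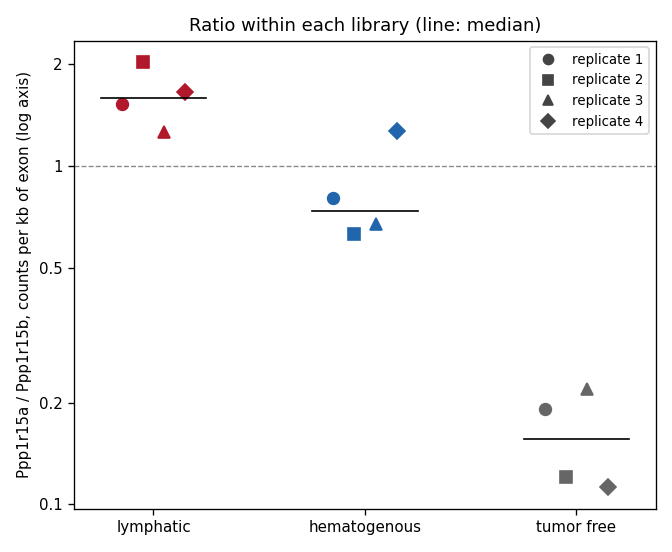
Ratio of Ppp1r15a to Ppp1r15b counts per kilobase of exon within each library, on a log axis, with lines at the group medians. Lymphatic libraries lie at 1.26 to 2.03, hematogenous libraries at 0.630 to 1.27 and tumor-free libraries at 0.112 to 0.219, and the dashed line marks equal levels.

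Atf4, the transcription factor at the centre of the response, had more mRNA in the lymphatic model than in either other group. Its level was 322, 410, 273 and 335 CPM in the lymphatic libraries, 204, 193, 219 and 247 CPM in the hematogenous libraries and 213, 211, 159 and 173 CPM in the tumor-free libraries. The lymphatic libraries lay above all others, and the hematogenous and tumor-free libraries overlapped. Atf4 rose in the lymphatic model, to 335 ± 56.4 CPM against 189 ± 26.9 CPM in tumor-free libraries (SD, n = 4 each), with a log2 fold change of 0.83 (SE 0.138, adjusted p = 0.00149, edgeR). For hematogenous against tumor free the log2 fold change was 0.19 (SE 0.137, adjusted p = 0.384, edgeR). Directly compared, Atf4 was lower in the hematogenous than in the lymphatic libraries by a log2 fold change of −0.63 (SE 0.137, adjusted p = 0.00719, edgeR).

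Ddit3, which encodes the stress-induced factor CHOP, was not called by edgeR in any comparison. Its level was 40.8, 38.8, 40.3 and 38.8 CPM in the lymphatic libraries, 42.3, 30.2, 26.7 and 30.8 CPM in the hematogenous libraries and 43.7, 36.4, 38.7 and 42.0 CPM in the tumor-free libraries. Hematogenous replicates 2 to 4 lay below the other 9 libraries, while hematogenous replicate 1 lay among them. The log2 fold change was −0.02 (SE 0.170, adjusted p = 0.981, edgeR) for lymphatic against tumor free and −0.31 (SE 0.172, adjusted p = 0.249, edgeR) for hematogenous against tumor free. For hematogenous against lymphatic it was −0.29 (SE 0.170, adjusted p = 0.357, edgeR), and −0.39 with voom and quality weights, which called it (limma adjusted p = 0.0379). Ddit3 was read with 246 to 1730 counts per library.

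Ddit4 (REDD1) and Sesn2 (sestrin 2) both restrain the growth kinase complex mTORC1, and only Ddit4 passed the test between the models. Ddit4 stood at 25.2, 137, 85.4 and 114 CPM in hematogenous replicates 1 to 4, against 20.2, 15.1, 27.7 and 29.0 CPM in lymphatic replicates 1 to 4. Hematogenous replicate 1 lay within the lymphatic range and the other 3 hematogenous libraries lay well above it. Ddit4 was higher in the hematogenous model, at 90.6 ± 48.5 CPM against 23.0 ± 6.54 CPM in the lymphatic libraries (SD, n = 4 each), by a log2 fold change of 1.98 (SE 0.403, adjusted p = 0.00826, edgeR). Tumor-free libraries, at 41.6, 26.3, 43.9 and 59.4 CPM, averaged between the models and overlapped both. Against them, neither the hematogenous model (log2 fold change 1.08, SE 0.396, adjusted p = 0.0778, edgeR) nor the lymphatic model (−0.90, SE 0.397, adjusted p = 0.331, edgeR) passed. Hematogenous replicate 1, the library with the lowest assigned share, decided these calls. Without it the log2 fold change of Ddit4 was 1.40 (SE 0.249, adjusted p = 0.00144, edgeR) for hematogenous against tumor free and −0.94 (SE 0.235, adjusted p = 0.0345, edgeR) for lymphatic against tumor free, with 2.33 (SE 0.251, adjusted p = 3.23e-05, edgeR) between the models.

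Sesn2 stood at 5.10, 9.19, 5.64 and 8.91 CPM in the hematogenous libraries, against 11.4, 12.4, 14.4 and 15.3 CPM in the lymphatic libraries. These groups did not overlap, and the log2 fold change of −0.89 (SE 0.373) did not pass (adjusted p = 0.161, edgeR). It passed with voom and quality weights (limma adjusted p = 0.0494) and in an edgeR fit of these groups alone (adjusted p = 0.0398). The tumor-free libraries, at 11.5, 3.26, 12.3 and 7.77 CPM, overlapped both. Against them the log2 fold change was 0.61 (SE 0.373, adjusted p = 0.532, edgeR) for the lymphatic and −0.28 (SE 0.376, adjusted p = 0.678, edgeR) for the hematogenous model.

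Cebpb, a leucine zipper factor that pairs with ATF4 and CHOP, was read at low levels. It had 215, 182, 49 and 126 counts (5.08, 4.97, 2.89 and 5.31 CPM) in the lymphatic libraries and 2, 78, 81 and 81 counts (0.189, 3.94, 5.14 and 5.92 CPM) in the hematogenous libraries, against 0, 3, 30 and 15 counts in the tumor-free libraries (0 to 2.16 CPM). The lymphatic libraries lay above all tumor-free libraries, and hematogenous replicate 1 lay among the tumor-free ones. The log2 fold changes against tumor free, 2.22 (SE 0.919, adjusted p = 0.267, edgeR) for the lymphatic and 1.96 (SE 0.916, adjusted p = 0.159, edgeR) for the hematogenous model, did not pass.

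The ATF4 targets with the response element in the printed stretches were read at low levels in all groups, with 0 counts in at least 1 library each. Trib3, a pseudokinase that binds ATF4 and the kinase AKT, had 22, 3, 13 and 16 counts in the lymphatic, 42, 34, 21 and 19 counts in the hematogenous and 13, 10, 34 and 0 counts in the tumor-free libraries. In CPM the hematogenous libraries (1.33 to 3.97) lay above the lymphatic libraries (0.0820 to 0.766), but the log2 fold change of 2.04 (SE 1.10) did not pass (adjusted p = 0.304, edgeR). Asns, which makes asparagine, had 15, 82, 6 and 28 counts in the lymphatic, 0, 107, 25 and 29 counts in the hematogenous and 0, 0, 4 and 22 counts in the tumor-free libraries. No comparison passed for it (lowest adjusted p = 0.529, edgeR). Chac1, which breaks down glutathione, had reads in 5 of the 12 libraries, with 9 counts in lymphatic replicate 1, 5 and 15 in hematogenous replicates 2 and 4, and 13 and 6 in tumor-free replicates 2 and 3. It did not pass the filter on low counts. A count of 0 allows up to 3 counts, which is 0.0708 CPM in the deepest and 0.444 CPM in the shallowest library and covers counting error only.

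Per kilobase of exon, the order of mean levels in the lymphatic libraries was Atf4 (142 CPM per kilobase), Ppp1r15a (73.0), Ppp1r15b (44.8), Ddit3 (23.2) and Ddit4 (13.1), with the other 5 genes under 4. In the hematogenous libraries it was Atf4 (91.5 CPM per kilobase), Ddit4 (51.6), Ppp1r15b (43.6), Ppp1r15a (36.1) and Ddit3 (19.0), of which Ddit4, Ppp1r15b and Ppp1r15a lay within the spread of one another. In tumor-free libraries the order was Atf4 (80.2 CPM per kilobase), Ppp1r15b (40.4), Ddit4 (24.4), Ddit3 (23.5) and Ppp1r15a (6.43), where Ddit4 and Ddit3 lay within their spread. Ppp1r15a stood above Ppp1r15b and Ddit3 in the lymphatic group and below both in the tumor-free group.

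Of the 10 genes, 9 passed the filter on low counts and entered the fit over all 16016 genes. Of the 8 beside Ppp1r15a, Atf4 alone was called in the lymphatic model against tumor-free nodes, and it was higher, where 2.74% of all genes tested were called (2.32% higher and 0.418% lower). In the hematogenous model none of the 8 was called by edgeR, DESeq2 or voom, with Ddit4 and Cebpb at an unadjusted p under 0.05 in edgeR, beside 16.4% of all genes called (9.52% higher and 6.87% lower). Between the models Ddit4 was called higher and Atf4 lower in the hematogenous libraries, beside 8.85% of all genes (2.93% higher and 5.92% lower). The genes were listed with earlier results known, and nothing is read from these shares. The median log2 fold change of the 9, Ppp1r15a included, was 0.36 for lymphatic against tumor free and 0.90 for hematogenous against tumor free. For hematogenous against lymphatic it was −0.26, where the medians of all genes tested were 0.08, 0.08 and −0.01. Each median of the 9 is the value of 1 gene with few reads, namely Asns (SE 1.38), Trib3 (SE 1.07) and Cebpb (SE 0.853). Nothing is read from these medians.

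**Figure D3:**
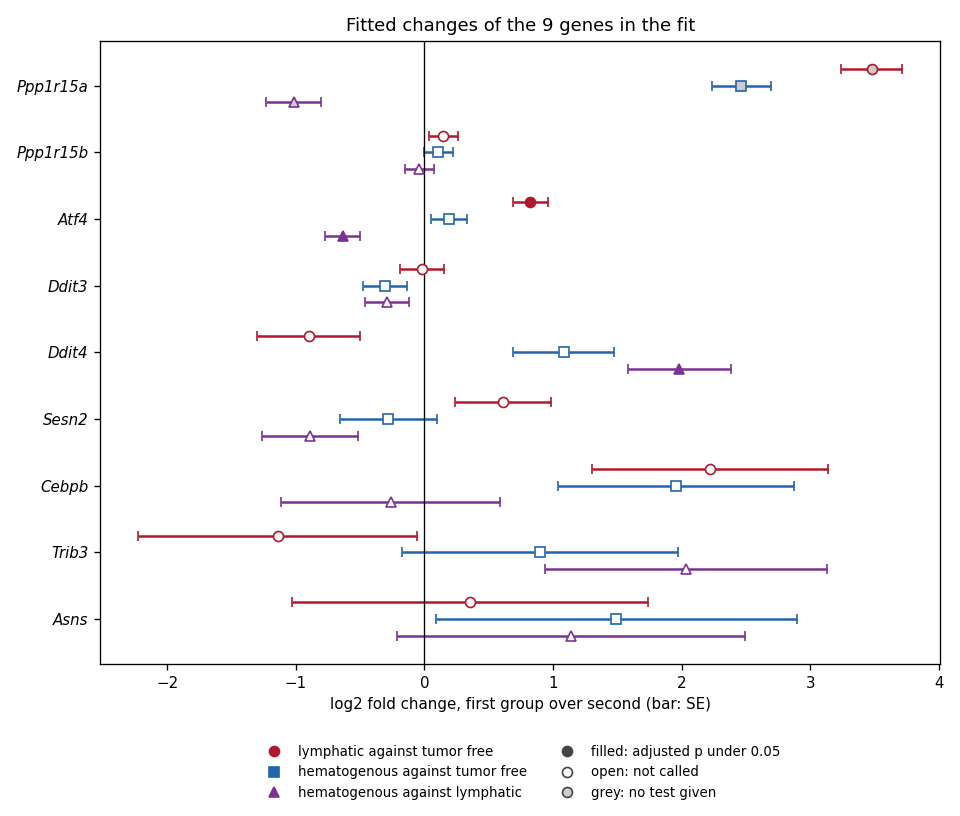
Fitted log2 fold changes with SE of the 9 genes that entered the fit, for the 3 comparisons named in the legend. Filled symbols passed an adjusted p under 0.05, open symbols did not, and Ppp1r15a is grey because no test is given for it. Atf4 lies at 0.83, 0.19 and −0.63, and the intervals of Trib3 and Asns are the widest.

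Upstream of the response, Eif2ak2, which encodes the kinase PKR that is activated by double-stranded RNA and is itself induced by interferon, rose in the lymphatic model. Its level was 174 ± 36.1 CPM against 59.8 ± 12.6 CPM in tumor-free libraries (SD, n = 4 each; log2 fold change 1.54, SE 0.183, adjusted p = 5.08e-05, edgeR). In the hematogenous model it was 85.3 ± 18.2 CPM, which did not pass against tumor free (adjusted p = 0.0590, edgeR) and was lower than in the lymphatic model (log2 fold change −1.02, SE 0.179, adjusted p = 0.00203, edgeR). The kinases PERK (Eif2ak3) and HRI (Eif2ak1) were not called in any comparison. GCN2 (Eif2ak4) was called higher in the hematogenous model at 39.4 ± 4.49 CPM against 25.5 ± 5.14 CPM in tumor-free libraries (log2 fold change 0.63, SE 0.197, adjusted p = 0.0350, edgeR), a call lost without any of 8 libraries (tumor-free 1 to 3, lymphatic 1 and 4, hematogenous 1, 3 and 4, highest adjusted p = 0.0904, edgeR). Of the catalytic phosphatase subunits with which Ppp1r15a works, Ppp1ca fell in the hematogenous model to 297 ± 47.2 CPM, against 464 ± 57.4 CPM in tumor-free libraries (log2 fold change −0.64, SE 0.130, adjusted p = 0.00244, edgeR), and Ppp1cb and Ppp1cc were not called in any comparison. Eif2ak2 was the only one of the 11 genes of kinases and phosphatase called in the lymphatic model, beside 2.74% of all genes called. In the hematogenous model 1 of the 11 was called higher and 1 lower against tumor free, near the 9.52% and 6.87% of all genes.

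Of the 23 tested targets of ATF4 other than the listed genes, 2 rose and none fell in the lymphatic model (median log2 fold change 0.23). Of all genes, 2.32% were called higher and 0.418% lower there. Slc3a2, the heavy chain of amino acid exchangers, rose to 132 ± 20.2 CPM against 75.3 ± 7.78 CPM in tumor-free libraries (log2 fold change 0.81, SE 0.154, adjusted p = 0.00461, edgeR). Atf3, a stress-induced factor, was the other, at 13.2 ± 14.3 CPM against 0.170 ± 0.341 CPM in tumor-free libraries (log2 fold change 5.66, SE 1.19, adjusted p = 0.0112, edgeR), a fitted value that depends on the prior count since tumor-free reads were nearly absent, and a call lost without tumor-free replicate 2 or 4 or lymphatic replicate 2 (highest adjusted p = 0.0818, edgeR). A gene so nearly absent there passes the filter on low counts through the tumor-bearing libraries, so that the call of Atf3 says little. In the hematogenous model Slc38a2 was called higher and Phgdh lower than in tumor-free libraries (median −0.21). This is 1 of 23 in each direction, which is not above the 9.52% of all genes called higher and 6.87% called lower. Leaving out 1 library ended the call of Slc38a2 in 10 of 12 cases (highest adjusted p = 0.101, edgeR) and that of Phgdh in 6 of 12 (highest adjusted p = 0.127, edgeR). Between the models, 5 were lower in the hematogenous libraries and none higher (median −0.48), beside 5.92% of all genes lower and 2.93% higher. Phgdh and Psat1, enzymes of serine synthesis, differed by log2 fold changes of −1.01 (SE 0.243, adjusted p = 0.0137, edgeR) and −0.98 (SE 0.251, adjusted p = 0.0186, edgeR). Both calls were lost without lymphatic replicate 2 or hematogenous replicate 3, that of Phgdh also without hematogenous 1 and that of Psat1 without hematogenous 2 (highest adjusted p in edgeR 0.0771 for Phgdh and 0.0986 for Psat1).

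The 12 aminoacyl-tRNA synthetases, which charge tRNAs and are in part ATF4 targets, held no call in the lymphatic model (edgeR, 0 also at an unadjusted p under 0.05, median log2 fold change 0.14), where 2.74% of all genes were called. In the hematogenous model 3 were lower than in tumor-free libraries (median −0.22, beside 6.87% of all genes lower), of which Aars, the alanyl-tRNA synthetase, at −0.54 (SE 0.138, adjusted p = 0.0113, edgeR) held without any single library. Among 8 subunits of eIF2 and its exchange factor none was called in the lymphatic model (edgeR, 0 also at an unadjusted p under 0.05) and 1 was lower in the hematogenous model than in tumor-free libraries. This 1 of 8 is near the background of 6.87%. Between the models 3 synthetases and 2 of these subunits were lower in the hematogenous libraries and none higher, beside 5.92% of all genes lower and 2.93% higher. Of 5 CHOP targets, Bcl2l11, which encodes the death factor BIM, rose in the hematogenous model by 1.43 on the log2 scale (SE 0.221, adjusted p = 0.000402, edgeR) against tumor free, beside 9.52% of all genes higher. Bcl2l11 and Bbc3, which encodes the death factor PUMA, were called higher in the hematogenous than in the lymphatic libraries, by 0.70 (SE 0.217, adjusted p = 0.0484, edgeR) and 1.30 (SE 0.392, adjusted p = 0.0435, edgeR) on the log2 scale, and leaving out 1 library ended these calls in 9 and 8 of 12 cases. Of the 8 tested mTORC1 brakes beside Ddit4 and Sesn2, Tsc1 rose in the hematogenous model by 0.65 on the log2 scale (SE 0.148, adjusted p = 0.00593, edgeR), and 1 of 8 is near the 9.52% of all genes called higher there. No C/EBP or tribbles relative of Cebpb and Trib3 was called by edgeR in any comparison, and 1 of the 5 tested had an unadjusted p under 0.05, for hematogenous against tumor free.

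Genes of the unfolded protein response of the endoplasmic reticulum, which shares the kinase PERK with the integrated stress response, rose in 2 of 18 cases in the lymphatic model and fell in none (median log2 fold change 0.18, beside 2.32% of all genes higher). Hspa5, the chaperone BiP, rose by 1.05 on the log2 scale (SE 0.192, adjusted p = 0.00308, edgeR), and the co-chaperone Dnajb9 by 1.67 (SE 0.228, adjusted p = 0.000195, edgeR). In the hematogenous model 5 were lower and 2 higher than in tumor-free libraries (median −0.51), where 6.87% of all genes were lower and 9.52% higher, so that the 2 higher are near that background, with Sdf2l1, a chaperone component, at −1.87 (SE 0.287, adjusted p = 0.000349, edgeR). Between the models 11 of 18 were lower in the hematogenous libraries and none higher (median −0.81, beside 5.92% of all genes lower), with Hspa5 at −1.18 (SE 0.192, adjusted p = 0.00118, edgeR) and Calr, the chaperone calreticulin, at −1.25 (SE 0.215, adjusted p = 0.00202, edgeR).

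Over all 89 tested pathway genes beyond the 10, 5 were higher and 0 lower in the lymphatic model than in tumor-free libraries (5.62% higher, beside 2.32% of all genes). Atf3, whose call says little, is 1 of the 5. In the hematogenous model 6 were higher and 11 lower (6.74% and 12.4%, beside 9.52% and 6.87% of all genes). Between the models 2 were higher and 23 lower in the hematogenous libraries (2.25% and 25.8%, beside 2.93% and 5.92% of all genes), or 5 higher and 15 lower with scaling by library size alone. The 25 calls between the models became 8 without lymphatic replicate 2, 12 without hematogenous replicate 1 and 10 without hematogenous replicate 3, and the 17 calls for hematogenous against tumor free became 11 without hematogenous replicate 1 or 3. Calls over all genes fell in the same fits. Between the models they went from 1417 to 620, 811 and 620, in that order. For hematogenous against tumor free they went from 2625 to 2123 and 1760. Pathway lists were described by counts and were not tested as sets.

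**Figure D4:**
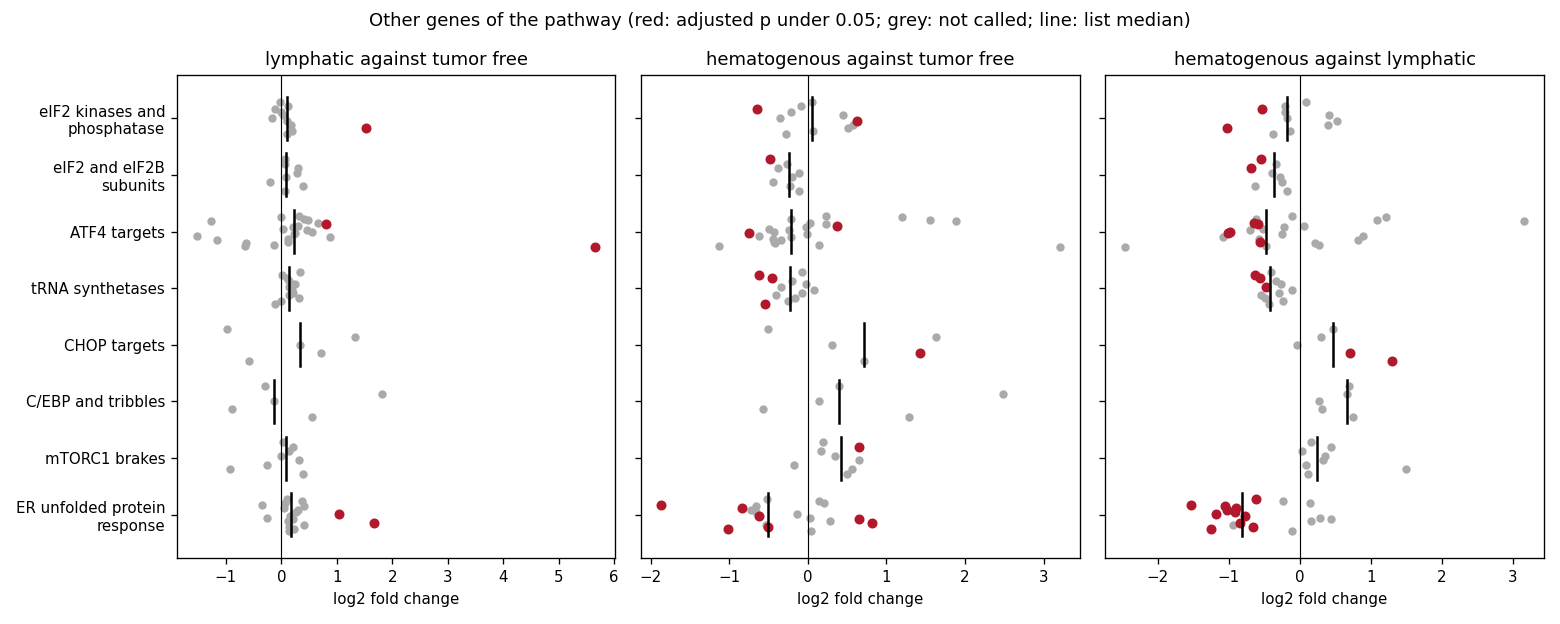
Fitted log2 fold changes of the tested genes of 8 pathway lists in 3 comparisons, with 1 point per gene, red where the adjusted p was under 0.05, and a black line at the list median. In hematogenous against lymphatic libraries, 11 of 18 genes of the unfolded protein response are red and all 11 lie below 0, with a median of −0.81.

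The genes most like Ppp1r15a were sought among 9381 tested genes with a mean of at least 5 CPM, by Pearson's r of log2 CPM over the 12 libraries. The 10 nearest were Fos (r = 0.976), Dusp1 (0.967), Ddx5 (0.964), Gbp9 (0.960), Bhlhe40 (0.947), Zfp36 (0.945), Fosb (0.945), Pcyt1a (0.937), Slfn5 (0.936) and Tnfaip3 (0.936). Fos and Fosb encode AP-1 subunits, Dusp1 a phosphatase of MAP kinases and Zfp36 a protein that destabilizes mRNA. The points share 3 groups, and each of these genes averaged highest in the lymphatic, next in the hematogenous and lowest in the tumor-free libraries. Over deviations from the group means, r for the 10 genes ran from 0.146 to 0.785, and none of them was among the 10 nearest by that measure. By Spearman's rho 6 of the 10 were among its 10 nearest. Promoter entries existed for 8 of the 10 genes. Among these, the TATA box matched for Fos and Tnfaip3, the AP-1 site for Tnfaip3 and the C/EBP-ATF element for none. Of the 8 with a promoter entry, Dusp1 held the cyclic AMP response element that Ppp1r15a holds (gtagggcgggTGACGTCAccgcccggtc, element in capitals, chr17:26508598-26508625, minus strand, GRCm38.p6).

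Immediate early and handling genes respond within minutes to stimulation and to tissue dissociation. Most of those tested rose with Ppp1r15a in the lymphatic model, and fewer did in the hematogenous model. The summed level of the 26 listed genes ran from 5427 to 8669 CPM in the lymphatic libraries and from 2627 to 4118 CPM in the hematogenous libraries, against 2472 to 2696 CPM in the tumor-free libraries. Of 24 tested, 16 rose and none fell in the lymphatic model against tumor free, where 2.32% of all genes were called higher. Against tumor free, 11 rose and 1 fell in the hematogenous model, beside 9.52% of all genes higher and 6.87% lower. Between the models 17 were lower in the hematogenous libraries and none higher, beside 5.92% of all genes lower and 2.93% higher. The sum is carried in large part by genes with a high level in every group, such as Hspa8, a constitutive chaperone (1689 ± 588 CPM in lymphatic, 673 ± 91.0 CPM in hematogenous and 867 ± 62.4 CPM in tumor-free libraries, SD, n = 4 each). Hspa8 was itself among the 16 called higher in the lymphatic model (log2 fold change 0.96, SE 0.173, adjusted p = 0.00262, edgeR) and adds to the lymphatic rise of the sum. Fos, Fosb, Jun, Dusp1, Nr4a1 and Nr4a2 were higher in every hematogenous library than in any tumor-free library. Egr2 was lower in every hematogenous library than in any tumor-free library (log2 fold change −1.54, SE 0.428, adjusted p = 0.0181, edgeR). Egr3, Ier2, Ier3, Nr4a3 and Junb were among those with fitted values below 0 that were not called, and the list median was 0.30. The share of all genes without overlap was not counted. Fos averaged 99.2 ± 59.3 CPM in hematogenous and 7.24 ± 2.99 CPM in tumor-free libraries (log2 fold change 3.74, SE 0.415, adjusted p = 0.000148, edgeR), and Dusp1 139 ± 74.2 CPM and 8.85 ± 3.46 CPM in the same groups (3.95, SE 0.417, adjusted p = 0.000109, edgeR). The part of stimulation or handling, which these genes mark, in the Ppp1r15a level was not tested.

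**Figure D5:**
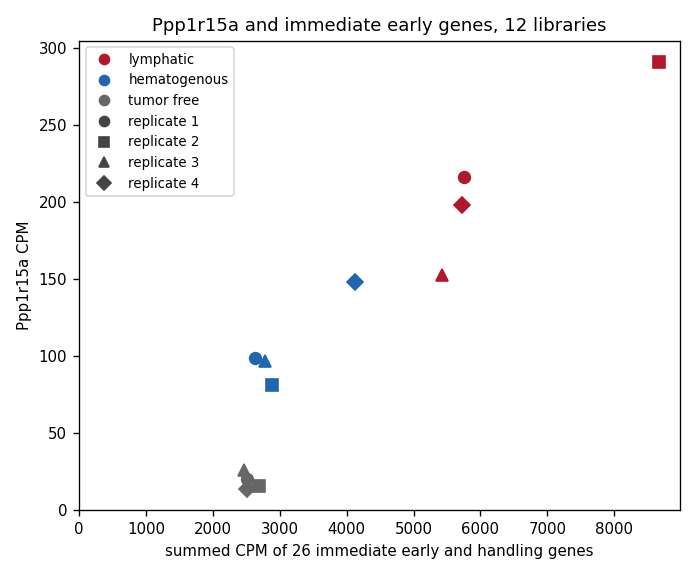
Ppp1r15a level against the summed level of 26 immediate early and handling genes, both in TMM-scaled CPM on linear axes, with 1 point per library. Lymphatic libraries lie to the right (5427 to 8669 CPM), and 3 hematogenous libraries lie near the tumor-free sums, at 81.1 to 99.0 CPM of Ppp1r15a. Genes with a high level in all groups carry much of the sum, and Fos, Fosb and Dusp1 were higher in all hematogenous than in all tumor-free libraries, while Egr2 was lower.

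Markers of other cell types were followed beside these genes, where 2.32% of all genes were called higher in the lymphatic and 9.52% in the hematogenous model against tumor free. Summed myeloid markers (14 genes, none at 0 in all libraries) ran from 220 to 304 CPM in the lymphatic, 253 to 331 CPM in the hematogenous and 220 to 268 CPM in the tumor-free libraries, and 7 of 11 tested were called higher in the hematogenous model than in tumor-free nodes, against 1 in the lymphatic model. Among the 7, S100a8, S100a9, Csf3r and Cd14 averaged 0.117, 0.213, 0.0959 and 0 CPM in tumor-free libraries. Genes nearly absent there pass the filter on low counts through the tumor-bearing libraries, so that their being called higher says little. T cell markers (11 genes) ran from 829 to 1123, 1071 to 1326 and 762 to 972 CPM in the same order of groups, with 3 of 11 called higher in the hematogenous and 0 in the lymphatic model against tumor free (edgeR, 1 of 11 at an unadjusted p under 0.05 for lymphatic against tumor free). B cell markers (12 genes) ran from 475 to 978, 391 to 572 and 366 to 505 CPM, with Pax5 alone called higher in each model, which is near the background in the hematogenous model. Its call was lost without 7 of 12 single libraries in the lymphatic and 5 of 12 in the hematogenous model. Single genes carry much of these sums. Tumor-free averages were 136 CPM for Itgam among the myeloid, 324 CPM for Trbc1 among the T cell and 318 CPM for Ighm among the B cell markers. Stroma and endothelium markers (9 genes) stayed under 8 CPM in sum. Of hemoglobin genes, Hba-a2 averaged 2.93 ± 2.38 CPM in lymphatic and 1.84 ± 1.40 CPM in hematogenous libraries and was at 0 in all tumor-free libraries (SD, n = 4 each), and was called in both models (adjusted p = 0.0163, edgeR, for lymphatic and 0.00856 for hematogenous against tumor free). Hbb-bt averaged 8.64 ± 2.75 CPM in lymphatic, 8.65 ± 12.4 CPM in hematogenous and 0.216 ± 0.432 CPM in tumor-free libraries and was called in the hematogenous model (adjusted p = 0.0166, edgeR) and not in the lymphatic model (adjusted p = 0.0553, edgeR). The call of Hba-a2 in the lymphatic model was lost without lymphatic replicate 3 (highest adjusted p = 0.0581, edgeR). That of Hbb-bt was lost without tumor-free replicate 1 or 2 or hematogenous replicate 2 (highest adjusted p = 0.0644, edgeR). Both genes were absent or nearly absent from tumor-free libraries and passed the filter through the tumor-bearing ones, so that their calls say little. Both also have near-identical copies, so that reads may be split between them. NK markers were lower in the hematogenous model in 8 of 12 cases against tumor free and in 7 of 12 against the lymphatic model, where 6.87% and 5.92% of all genes were lower. In a fit with the B cell markers as a covariate, Ddit4 was still called higher in the hematogenous than in the lymphatic libraries, and Cebpb was called in no comparison. Beyond that fit, the part of these markers in the levels of Ddit4, Cebpb and Ppp1r15a was not tested.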

How the data were processed

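Stranded poly(A) libraries of sorted NK cells were sequenced single-end, per the labels' protocols. The authors deposited unnormalized counts for each gene and library. The submitters' processing notes name the build GRCm39 and the tools HTSeq 2.0.2, HISAT2 2.1.0, Trimmomatic 0.39 and FastQC 0.11.9. Annotation release and strand setting are not stated in what was used here, so antisense and overlapping genes may share reads. Lines that name no gene were left out of 56748 gene IDs and of all totals (reads in no feature made up 11.4% to 24.6% of a library). Symbols and exon lengths came from GENCODE M21 and matched 52073 IDs (91.8%).

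Counts were tested with edgeR 4.0.16 in R 4.3.3 (quasi-likelihood, robust, TMM, default filter by group) in all 12 libraries with group alone, giving 16016 genes tested and 9 residual degrees of freedom. Calls needed an adjusted p under 0.05 (Benjamini-Hochberg over all genes tested). SE was taken as the size of the log2 fold change over the root of F. Simulated counts with known changes were used to check the fit.

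The genes, lists and rules were chosen with earlier results of these data known. Named genes were the 10 genes, from each list and comparison at most 3 calls, ranked by adjusted p, and the 10 genes nearest to Ppp1r15a. Some of these are given as counts alone, and Eif2ak1, Eif2ak3, Ppp1cb and Ppp1cc were named after their values were seen. Alternatives were other scalings, filters, DESeq2 1.42.0, voom with quality weights (limma 3.58.1), a replicate block, equal depth, a B cell covariate, a stricter threshold and leaving out each library. Of a further marker list, the called hemoglobin genes are given and the rest is not reported here.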

Additional observations from a re-analysis of the deposited data

Results flagged for a closer look

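Within groups of 4, a library was set apart where its gap to the nearest other exceeded Dixon's 95% critical share of the group's range. For normally spread values chance does this in about 1 of 20 groups, a rate that need not hold for low counts with ties at 0. In all, 30 groups were looked at and 6 libraries were set apart. Asns stood at 3.17 CPM in tumor-free replicate 4 (22 counts, against 0 to 4 in the others). Trib3 stood at 3.97 CPM in hematogenous replicate 1 and at 0 CPM in tumor-free replicate 4. Chac1 stood at 0.212 CPM in lymphatic replicate 1 and at 1.92 CPM in tumor-free replicate 2. Cebpb stood at 2.89 CPM in lymphatic replicate 3. All 6 lay in genes with few reads. Chac1 was at 0 in lymphatic replicates 2 to 4, so that any count in replicate 1 would have been set apart. The number set apart is therefore not read against the 1 of 20.

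The change against tumor free differed between the models for Atf4 and Ddit4, by the edgeR test of the models against each other. For Atf4 the log2 change was 0.19 in the hematogenous and 0.83 in the lymphatic model, a difference of −0.63 (adjusted p = 0.00719, edgeR). For Ddit4 it was 1.08 in the hematogenous and −0.90 in the lymphatic model, a difference of 1.98 (adjusted p = 0.00826, edgeR), with 3 of 4 hematogenous libraries above all lymphatic ones. Both comparisons share the tumor-free libraries.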

How the results depend on the processing

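Across the alternatives, the 9 genes in the fit kept direction and side of the threshold in 626 values, passed newly in 5 and turned sign in 16, all of the 16 in differences that were not called. Ppp1r15a is among the 9, and since it was put forward for its pattern, nothing is read from its part in these counts. For Ppp1r15b, hematogenous against lymphatic (log2 change −0.04), the sign turned with DESeq2 size factors (0.029), DESeq2 (0.029), upper-quartile scaling (0.054), library size alone (0.068) and no filter (0.0011), and leaving out 1 library gave −0.10 to 0.046. Leaving out 1 library gave −0.40 to 3.56 for Asns, lymphatic against tumor free, and −0.51 to 0.17 for Cebpb, hematogenous against lymphatic. The cause was not tested. Ppp1r15a aside, Atf4 was called for lymphatic against tumor free in all 24 alternatives. Between the models Atf4 and Ddit4 were each called in all 24, Sesn2 in 2 and Ddit3 in 1. The calls of Sesn2 came with voom and in a fit of the compared groups alone, and that of Ddit3 with voom. Over all genes these fits called 2923 and 2029 between the models, against 1417 in the main fit. Ddit4 was called against tumor free in 1 alternative for each model, namely without hematogenous replicate 1. The 5 other pathway calls for lymphatic against tumor free ranged from 4 to 6 when 1 library was left out, where all genes gave 255 to 634 calls, against 439 in the main fit. The 17 for hematogenous against tumor free ranged from 11 to 19, and were 26 with no filter, 11 with a B cell covariate and 7 at an adjusted p under 0.01. Calls over all genes there were 2625 in the main fit and 1760 to 3202 with 1 library left out. With no filter, the covariate and the stricter threshold they were 2841, 1539 and 1109. The 25 between the models ranged from 8 to 27, and were 8 at an adjusted p under 0.01. All genes gave 620 to 1572 calls there with 1 library left out, and 477 at the stricter threshold. Same-numbered libraries did not deviate together (correlations −0.073 to 0.059). This gave no sign of pairing by number, but it cannot show that same-numbered samples were handled apart. A replicate block gave 2, 1 and 3 calls among the 9 genes, of which Ppp1r15a was 1 each time. It gave 5, 18 and 22 among the other pathway genes, beside 362, 2518 and 1439 over all genes. Chac1, Asns, Trib3 and Cebpb had 0 counts in at least 1 library each, and the part of depth in this was not tested.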
